A study of Homo sapiens with 6 samples.

Results

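The genes described here are those of the CCAAT/enhancer-binding protein (C/EBP) group of transcription factors, namely CEBPA, CEBPB, CEBPD, CEBPG, CEBPZ and DDIT3. They were chosen by gene symbol, and every probe set (a group of short probes against 1 transcript) whose platform annotation named one of them was taken, which gave 8 of 54613 probe sets and 6 of 19775 genes. Their RNA was measured on 6 Affymetrix U133 Plus 2.0 arrays, 2 biological replicates in each of 3 states of IMR90, a line of human diploid lung fibroblasts that carried ER:Ras, an oncogenic H-ras V12 fused to the estrogen receptor and switched on by 4-hydroxytamoxifen (4-OHT). Growing cells had received neither 4-OHT nor siRNA. Ctrl-KD OIS cells had been brought into oncogene-induced senescence (OIS) by 6 days in 4-OHT at 100 nM and transfected with a control siRNA 4 days before the RNA was taken. RB-KD OIS cells had received 4-OHT in the same way and siRB1, a mixture of siRNAs against RB1, the gene of the retinoblastoma protein (RB), at that time. These states are called Ctrl-KD and RB-KD below. The arrays served the question of how RB affects metabolic genes in senescent cells. All 3 states carried the ER:Ras construct. Because the growing cells received neither 4-OHT nor siRNA, Ras induction, 4-OHT itself and transfection cannot be told apart in either comparison with them.

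C/EBP proteins bind DNA as dimers through a basic region and a leucine zipper (bZIP). C/EBPα, C/EBPβ and C/EBPδ carry activation domains and drive acute-phase, inflammatory and adipogenic genes, and C/EBPβ is known as a driver of the cytokine secretion of Ras-induced senescence. C/EBPγ (CEBPG) has no strong activation domain and acts largely through its partners, among them C/EBPβ and ATF4. DDIT3, better known as CHOP, is induced under endoplasmic reticulum stress and amino acid shortage and can hold other C/EBP proteins in dimers that do not bind their usual sites. The CEBPZ protein shares the name but not the bZIP domain, and is a CCAAT-binding and nucleolar protein. The symbol CEBPZ is also an old synonym of DDIT3, and the 2 genes were kept apart here by their current symbols.

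Signals were MAS5 intensities on a linear scale, with array medians of 46.0 to 51.8, and the 30139 probe sets that exceeded their array's median on 2 or more of the 6 arrays were tested. RB1 (203132_at) read 2627 and 2528 in growing, 2578 and 1914 in Ctrl-KD and 222 and 228 in RB-KD cells, a fall of 9.87-fold between the OIS states (log2 difference -3.30 ± 0.15 SE, limma adjusted p = 3.36e-06). With the mean of this and a dim second probe set (211540_s_at, 2.0 to 53.1 on the 6 arrays, not tested) the difference was -1.48 and was not called (adjusted p = 0.251). All 8 fibroblast markers exceeded the median on every array, with summed signals of 178656 to 180119 in growing, 120979 to 121574 in Ctrl-KD and 139684 to 167493 in RB-KD cells, whereas 0 of 5 epithelial markers and 1 of 6 blood markers (CSF1R) did so. Of 4 endothelial markers PECAM1 and TEK did, and the summed endothelial signal was 1286 to 1417, 510.3 to 531.6 and 1419 to 1557 in the same order. The fibroblast and endothelial sums thus moved between states like some of the genes below, but not every marker moved with its sum. The endothelial sum was mostly TEK (means 1189, 339 and 1295), while PECAM1 read 101, 116 and 136. Among the fibroblast markers FAP rose (2941, 3716 and 4188), and COL1A1 and VIM changed little. The part of either sum in any result was not tested.

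Sequence in front of the transcription start was read from RefSeq (GRCh38.p14) for 5 of the 6 genes, in 8 windows of 250 bases before and 50 bases after a start, to show which C/EBP, ATF and RB-linked motifs lie close to the genes that moved. Motifs were matched letter by letter on both strands. The C/EBP palindrome TTGCGCAA (in 0.152% of 34796 distinct windows of all genes), the looser C/EBP pattern TTNNGNAA that includes it (36.9%), the cyclic AMP response element TGACGTCA (1.84%) and the STAT pattern TTCNNNGAA (7.67%) matched in none of the 8 windows. The shorter TGACG, part of the full element (24.5%), matched once for CEBPB and once for CEBPZ. The C/EBP-ATF composite pattern TGATGNAA, a layout known from genes bound by C/EBP-ATF4 dimers (3.63%), matched once for CEBPG, and the E2F pattern TTTNNCGC (6.86%) matched once for CEBPZ. The 4 matches are shown 5′ to 3′ on the strand of the gene with their neighbouring bases, the matched letters in capitals.
CEBPB, TGACG, 57 bases before a start, chr20:50190761-50190790, plus strand: gaggggccggcgTGACGcagcggttgctac
CEBPG, TGATGNAA, 42 bases before a start, chr19:33374060-33374089, plus strand: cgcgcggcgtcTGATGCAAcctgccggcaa
CEBPZ, TGACG, 174 bases before the start, chr2:37231753-37231782, minus strand: cttcgaggggacTGACGcttacctgcgcgc
CEBPZ, TTTNNCGC, just after the start, chr2:37231575-37231604, minus strand: aataggctgagTTTCACGCgcgtatgcttt
For DDIT3, whose signal moved in the same direction as that of CEBPG in Ctrl-KD cells, the 250 bases before the start (chr12:57520515-57520764, minus strand) held none of these and only the SP1 pattern GGGCGG or its reverse (44.9% of windows), 3 times, in capitals here. SP1 matches were not particular to DDIT3. Over whole windows, with the 50 bases after a start, there were 6 and 5 for CEBPB and 2 for CEBPA. There were 2 and 0 in the CEBPG windows and 0 for CEBPZ. The CEBPB windows overlap and share some of their matches, and the DDIT3 windows are nearly the same sequence.
DDIT3, 250 bases before the start: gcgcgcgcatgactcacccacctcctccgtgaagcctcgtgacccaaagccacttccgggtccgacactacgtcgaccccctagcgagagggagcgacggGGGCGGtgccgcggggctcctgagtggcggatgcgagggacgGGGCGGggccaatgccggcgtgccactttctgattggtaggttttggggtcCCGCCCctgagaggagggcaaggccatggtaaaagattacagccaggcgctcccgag
These matches are descriptions of letters and were not tested for binding. Sequence more than 250 bases before a start was not read. A motif further out, for DDIT3 or any other gene, would therefore not be seen here.

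CEBPB and CEBPD, the activating members, were both higher in OIS than in growing cells. CEBPB (212501_at) read 8571 and 8287 in growing, 18036 and 18473 in Ctrl-KD and 19411 and 17455 in RB-KD cells. All 4 OIS arrays thus lay above both growing arrays, while the ranges of the OIS states overlapped. The mean was 8429 ± 200.5 (SD, n = 2) in growing, 18255 ± 309 in Ctrl-KD and 18433 ± 1383 in RB-KD cells. Against growing cells CEBPB rose 2.17-fold (95% confidence interval 1.91 to 2.46) in Ctrl-KD cells, a log2 difference of 1.11 ± 0.08 SE with a limma adjusted p of 7.46e-06. It rose 2.18-fold (1.92 to 2.48) in RB-KD cells, a log2 difference of 1.13 ± 0.08 with an adjusted p of 9.89e-06. Between the OIS states the difference was 0.01 on the log2 scale (95% confidence interval -0.17 to 0.20, adjusted p = 0.944), so a change of more than about 1.14-fold upward or a fall to below 0.888 of the Ctrl-KD level lies outside the interval. In bulk RNA a higher level per cell and a larger share of cells with the transcript cannot be told apart, here or below.

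CEBPD, an early responder to cytokines, has a pair of probe sets that did not show the same picture. Its brighter probe set (203973_s_at) read 2351 and 2038 in growing, 3477 and 3273 in Ctrl-KD and 2873 and 2828 in RB-KD cells, so that the 3 states did not overlap and Ctrl-KD cells were highest. The rise was 1.54-fold (95% confidence interval 1.32 to 1.80, limma adjusted p = 0.00107) in Ctrl-KD and 1.30-fold (1.11 to 1.52, adjusted p = 0.0180) in RB-KD cells. RB-KD against Ctrl-KD cells gave a log2 difference of -0.24 (95% confidence interval -0.47 to -0.02, adjusted p = 0.140), which was not called. The second probe set (213006_at) was dim, at 109 and 76.9 in growing, 100.5 and 86.1 in Ctrl-KD and 88.2 and 74.6 in RB-KD cells, with all 3 states overlapping. Its log2 differences against growing cells, 0.03 and -0.17, had 95% confidence intervals of -0.75 to 0.81 and -0.95 to 0.61, which include the changes of the brighter probe set. With the mean of both probe sets in place of each, neither call held (log2 difference 0.33 with adjusted p = 0.171 in Ctrl-KD and 0.11 with adjusted p = 0.677 in RB-KD cells). The call in RB-KD cells was also lost without growing replicate 2 (adjusted p = 0.189) or either RB-KD array (0.0776 and 0.0653), and with a prior variance that does not follow the signal (0.103).

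CEBPA, the adipogenic and myeloid member, was dim in every state. Its probe set (204039_at) read 10.8 and 3.9 in growing, 6.9 and 18.6 in Ctrl-KD and 7.3 and 11.4 in RB-KD cells, under the array median on all 6 arrays, and was not tested. CEBPE, the myeloid relative outside the group described, read 55.7 and 32.5, 35.5 and 50.8, and 6.2 and 43.0 in the same order (214523_at) and passed no test. For both genes the readings of the states overlapped and give no order.

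**Figure D1:**
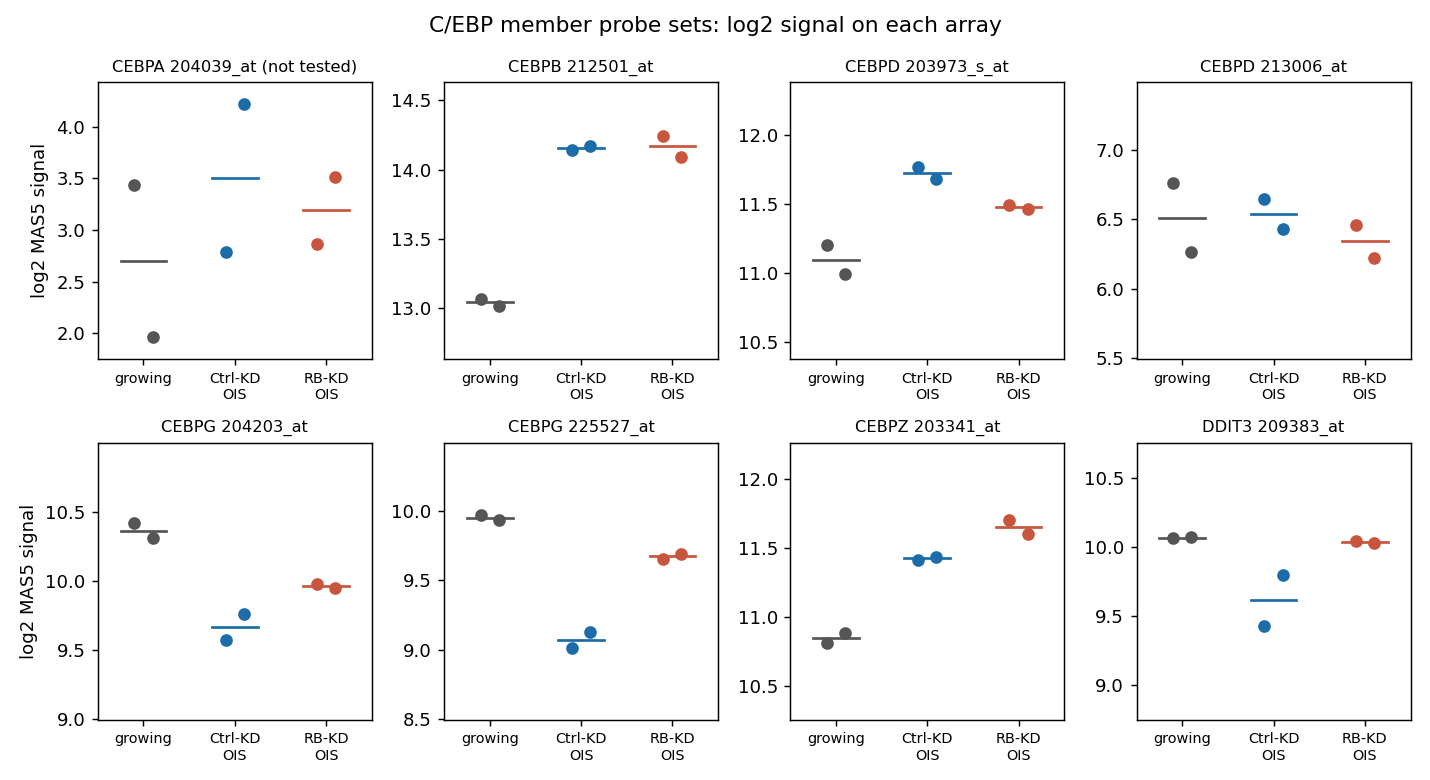
Log2 MAS5 signal of the 8 probe sets of CEBPA, CEBPB, CEBPD, CEBPG, CEBPZ and DDIT3 in growing, Ctrl-KD and RB-KD cells, with 1 point per array and a bar at the mean of the 2 arrays of a state; panels span at least 2 log2 units and differ in level. CEBPB, at 8287 to 8571 in growing and 17455 to 19411 in OIS cells, moved furthest of the tested probe sets, and both CEBPG probe sets were lowest in Ctrl-KD cells.

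CEBPG and DDIT3, which shape the activity of the others as partners, were lower in Ctrl-KD than in growing cells. The first CEBPG probe set (204203_at) read 1368 and 1272 in growing, 764 and 869 in Ctrl-KD and 1009.5 and 988 in RB-KD cells. The second (225527_at) read 1006 and 979, 516 and 560.0, and 808 and 829 in the same order. On both probe sets the 3 states did not overlap, and the order was growing, RB-KD and Ctrl-KD from high to low. In Ctrl-KD cells CEBPG fell 1.62-fold on the first probe set (log2 difference -0.69 ± 0.12 SE, limma adjusted p = 0.00142) and 1.85-fold on the second (-0.88 ± 0.12, adjusted p = 0.000354). In RB-KD cells the first fell 1.32-fold (-0.40 ± 0.12, adjusted p = 0.0284) and the second gave -0.28 ± 0.12 with an adjusted p of 0.112, which was not called. Between the OIS states the second probe set was 1.52-fold higher in RB-KD cells (95% confidence interval 1.26 to 1.83, adjusted p = 0.00822), while the first, at 1.23-fold (1.02 to 1.47), had an adjusted p of 0.127. The call on the second was lost with a prior variance that does not follow the signal (adjusted p = 0.0614), and the fall of the first in RB-KD cells was lost after median centring (-0.29, adjusted p = 0.0947) and without any 1 of the 4 growing and RB-KD arrays (0.0814 to 0.185).

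DDIT3 (209383_at) read 1068 and 1077 in growing, 688.5 and 891 in Ctrl-KD and 1054 and 1044 in RB-KD cells. The Ctrl-KD arrays were the lowest but differed from each other more than the arrays of the other states did. The fall in Ctrl-KD cells was 1.37-fold (log2 difference -0.45 ± 0.14 SE, limma adjusted p = 0.0307), whereas RB-KD and growing cells differed by -0.03 (95% confidence interval -0.34 to 0.28, adjusted p = 0.889). RB-KD against Ctrl-KD cells gave 0.42 (0.11 to 0.73), with an adjusted p of 0.0684. Leaving out Ctrl-KD replicate 1 took the fall to -0.27 (adjusted p = 0.143), and without Ctrl-KD replicate 2 the difference between the OIS states was 0.61 and was called (adjusted p = 0.0185). The fall also missed the threshold without either growing array (0.122 and 0.130), after quantile normalization (0.0724) or median centring (0.0659) and with a prior variance that does not follow the signal (0.111).

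CEBPZ rose in both OIS states. Its probe set (203341_at) read 1803 and 1893 in growing, 2726 and 2772 in Ctrl-KD and 3326 and 3098 in RB-KD cells, so that the states did not overlap and RB-KD cells were highest. The rise was 1.49-fold (95% confidence interval 1.29 to 1.72, limma adjusted p = 0.00106) in Ctrl-KD and 1.74-fold (1.504 to 2.01, adjusted p = 0.000185) in RB-KD cells. The OIS states differed by 0.22 on the log2 scale (95% confidence interval 0.02 to 0.43), and with an adjusted p of 0.138 this was not called.

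**Figure D2:**
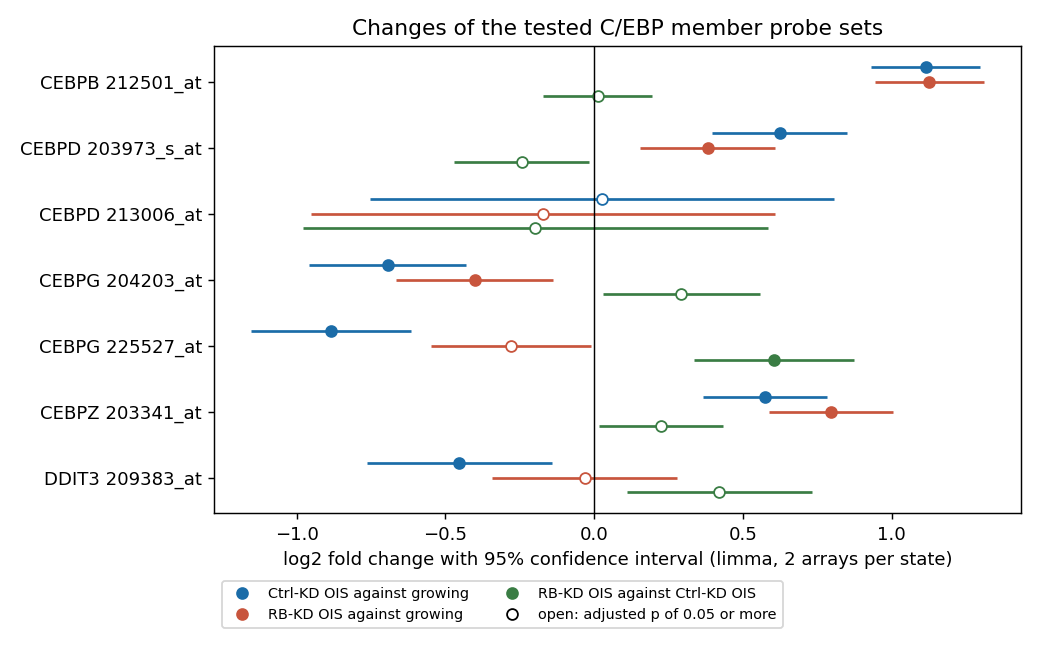
Log2 fold change (horizontal axis) of the 7 tested probe sets in the 3 comparisons, each with its 95% confidence interval from limma on 2 arrays per state; filled points have an adjusted p under 0.05. CEBPB and CEBPZ lie above 0 in both comparisons with growing cells, and among the differences between the OIS states only that of CEBPG 225527_at, 0.61, is filled.

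Over the 7 tested probe sets, 3 rose and 3 fell in Ctrl-KD against growing cells, where 15.8% of all tested probe sets rose and 18.3% fell. In RB-KD against growing cells 3 rose and 1 fell, where 14.0% of all rose and 16.5% fell. In RB-KD against Ctrl-KD cells 1 rose and 0 fell, where 8.96% of all rose and 7.93% fell, and at an unadjusted limma p under 0.05 the counts were 4 and 1, where 15.0% of all rose and 14.9% fell. The median log2 difference of the members was 0.03, -0.03 and 0.22 in these comparisons, against -0.05, -0.07 and -0.02 over all tested probe sets. CEBPG and CEBPD each enter these counts with a pair of probe sets, which read the same gene and are not separate members. The 3 falls in Ctrl-KD cells were those of DDIT3 and of both CEBPG probe sets. With so few probe sets these counts are descriptions, and the comparisons share arrays. Median centring of the arrays moved the median of all probe sets in RB-KD against growing cells from -0.07 to 0.04, and the numbers called higher and lower from 4218 and 4961 to 5230 and 3788. In Ctrl-KD against growing cells they moved from 4755 and 5515 to 5613 and 4561. No call on a member changed direction under any of the 16 alternative settings.

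**Figure D3:**
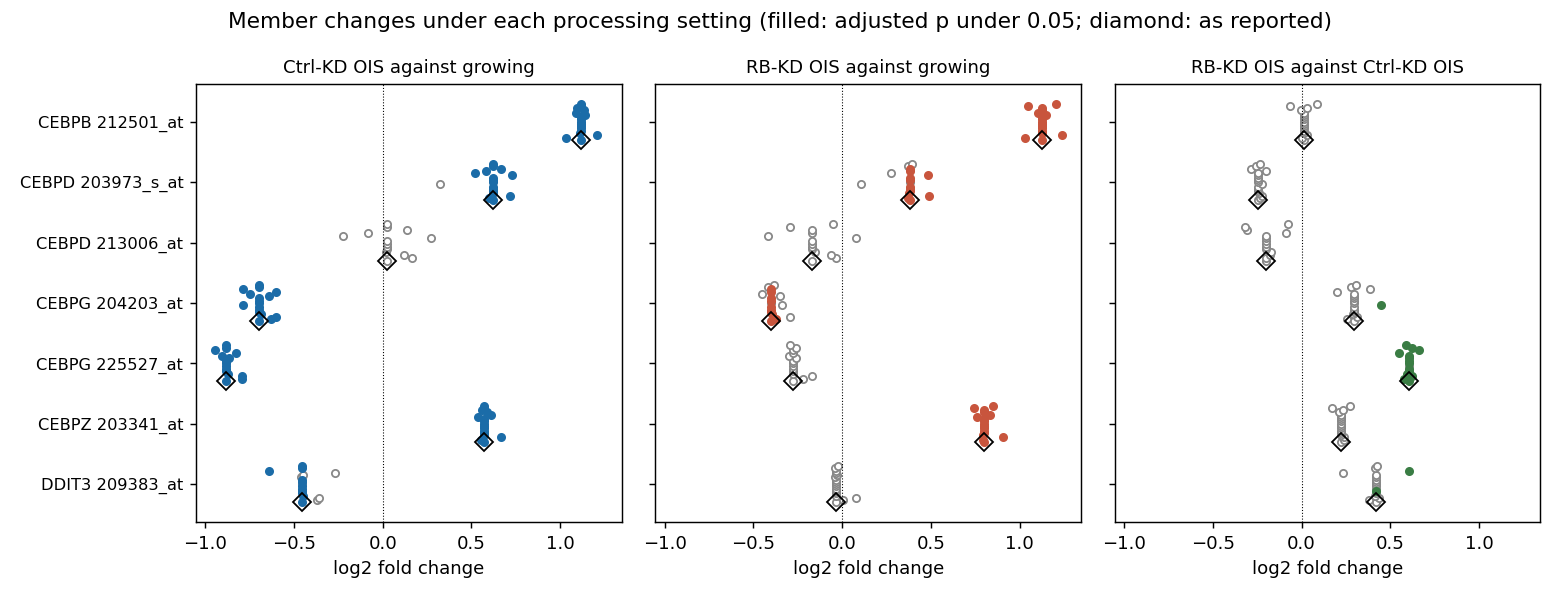
Log2 fold change of the 7 tested probe sets as reported (diamond) and under the alternative processing settings, with each comparison in a panel and filled points for an adjusted p under 0.05. CEBPB against growing cells stayed between 1.03 and 1.24 and filled throughout, whereas DDIT3 and CEBPG 204203_at turn from filled to open under several settings.

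Likeness to CEBPB over the 6 arrays was the root mean square difference of log2 signals, each gene centred on its own mean. The closest genes were MCL1, an anti-apoptotic BCL2 relative, at 0.0372, FJX1 at 0.0616 and CDKN2A, the locus of p16, at 0.0636. NARF at 0.0680 and RASSF8 at 0.0681 came next. MCL1 read 8569.5 and 8375 in growing, 18567 and 19405 in Ctrl-KD and 18808 and 17975 in RB-KD cells. For the brighter CEBPD probe set the closest were AGO3, an Argonaute protein, at 0.0385, COX11, an assembly factor of cytochrome c oxidase, at 0.0441, PAPOLG, a poly(A) polymerase, at 0.0492, SYF2 at 0.0495 and VMP1, an autophagy protein, at 0.0524. COX11 read 3368 and 3162, 5104.5 and 4892, and 4269.7 and 3991.5 in the same order, with Ctrl-KD cells highest as for CEBPD. Likeness over 6 arrays in 3 states describes the levels, rests on the brightest probe set of each gene and carries no test. With the mean of all probe sets MCL1 and FJX1 kept their rise in Ctrl-KD cells. CDKN2A (0.28, limma adjusted p = 0.573), NARF (0.27, 0.174) and RASSF8 (0.80, 0.051) lost that call, as did AGO3 and PAPOLG. VMP1 was dim, at 68.8 to 120.0, and was called in no comparison as reported.

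Among 15 bZIP partners and relatives, 13 were tested, each by its brightest probe set. In Ctrl-KD against growing cells 1 (CREM, by 0.46) rose and 6 fell (19.9% and 20.7% of all 13438 genes tested), with a median log2 difference of -0.36 against -0.01 over all genes. Over the alternative settings the counts were 0 to 2 and 3 to 6. ATF4, the main effector of the integrated stress response and a C/EBPγ partner, read 17917 and 17579 in growing, 7639 and 8114 in Ctrl-KD and 16779 and 13809 in RB-KD cells. Its Ctrl-KD arrays lay far below the other 4, with a log2 difference of -1.17 ± 0.10 SE against growing (limma adjusted p = 1.87e-05) and of 0.95 ± 0.10 for RB-KD against Ctrl-KD cells (0.000325). RB-KD against growing cells gave -0.22 (adjusted p = 0.127), which passed the threshold after quantile normalization (0.00818) and without RB-KD replicate 1 (0.0302). NFIL3, a repressor of the same bZIP class, fell by 0.62 in Ctrl-KD cells (adjusted p = 0.00433) and was higher by 0.95 in RB-KD than in Ctrl-KD cells (0.00114). Both NFIL3 calls were lost with a prior variance that does not follow the signal (limma adjusted p = 0.0669 and 0.0618).

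Against growing cells 4 of the 13 (ATF3, BATF3, CREM and ATF5) rose and 3 (TEF, ATF6 and CREB1) fell in RB-KD cells (18.0% and 18.5% of all genes), and against Ctrl-KD cells 5 (BATF3, ATF3, NFIL3, ATF4 and ATF5) were higher and 0 lower, also 0 at an unadjusted limma p under 0.05 (11.6% and 10.3% of all genes, and 18.1% lower at the unadjusted p). Over the alternative settings the 4, 3 and 5 became 1 to 5, 1 to 4 and 2 to 5. CREB1 lost its call in RB-KD against growing cells under 8 settings (adjusted p up to 0.236) and ATF5 under 4 (up to 0.647). The medians were 0.00 and 0.21, against -0.02 and -0.02 over all genes. BATF3, a partner of JUN proteins, read 552 and 472 in growing, 601 and 542 in Ctrl-KD and 1265 and 1405 in RB-KD cells, and was higher by 1.22 in RB-KD than in Ctrl-KD cells (adjusted p = 0.00047). ATF3, a stress-induced repressor and activator, was higher there by 1.18 (adjusted p = 0.00232) at 1204 and 947 against 507 and 441, but with the mean of all its probe sets the difference was 0.53 (adjusted p = 0.360). ATF6, a sensor of the unfolded protein response, fell by 0.78 in both OIS states (adjusted p = 0.00138 and 0.00168), as did TEF, by 0.70 and 0.88 (0.0156 and 0.00593). The TEF call in Ctrl-KD cells was lost after quantile normalization (0.0523), without either growing array (0.0524 and 0.109) and without Ctrl-KD replicate 1 (0.0595), and that in RB-KD cells without growing replicate 2 (0.0553).

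Genes of the integrated stress response, which carries ATF4 and CHOP and supplies amino acids, were more often lower than higher in OIS cells. Of 31 tested, 8 rose and 14 fell in Ctrl-KD and 8 rose and 12 fell in RB-KD against growing cells, with median log2 differences of -0.32 and -0.12. Over all genes the shares were 19.9% and 20.7% in Ctrl-KD and 18.0% and 18.5% in RB-KD cells, and over the alternative settings the 4 counts were 4 to 9, 11 to 15, 6 to 9 and 9 to 13. Set against Ctrl-KD cells, RB-KD cells were higher for 8 of these (3 to 9 over the alternative settings) and lower for 1. The list median was 0.12, against -0.02 over all genes, of which 11.6% were higher and 10.3% lower. SLC7A11, the cystine transporter, read 9940.1 and 8963 in growing, 838 and 541 in Ctrl-KD and 2171 and 1729 in RB-KD cells, and fell by 3.81 and 2.28 on the log2 scale (limma adjusted p = 6.87e-07 and 2.43e-05). PHGDH, the first enzyme of serine synthesis, read 2282 and 2386, 294 and 280.0, and 1037 and 838 in the same order, and was higher by 1.70 in RB-KD than in Ctrl-KD cells (adjusted p = 6.55e-05). PSAT1, the next enzyme of that pathway, fell by 2.64 in Ctrl-KD and 1.07 in RB-KD cells, with 1.57 between them (adjusted p = 0.000142). ASNS, asparagine synthetase, fell by 3.34 and 2.07, with 1.27 between the OIS states (adjusted p = 0.00558), but all 3 of its calls were lost with the mean of all its probe sets. For these 4 genes the order from high to low was growing, RB-KD and Ctrl-KD, without overlap of the states, as for CEBPG.

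Others on this list went another way. SLC7A5, the leucine transporter, was that 1 gene, at a log2 difference of -0.44 between the OIS states (adjusted p = 0.0444), a call lost under 10 of the alternative settings (adjusted p up to 0.186), and it fell by 1.82 and 2.26 against growing cells. VEGFA, the angiogenic growth factor, rose by 2.18 and 2.42 in the OIS states (adjusted p = 1.04e-06 and 7.66e-07). CHAC1 and TRIB3, canonical targets of ATF4 and CHOP, were singled out after their values were seen. CHAC1 fell by 1.22 in Ctrl-KD cells (adjusted p = 4.36e-05) and was higher by 1.23 in RB-KD than in Ctrl-KD cells (0.000206), whereas TRIB3 differed by 0.02, 0.02 and -0.01 in the 3 comparisons (adjusted p = 0.883, 0.914 and 0.981).

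**Figure D4:**
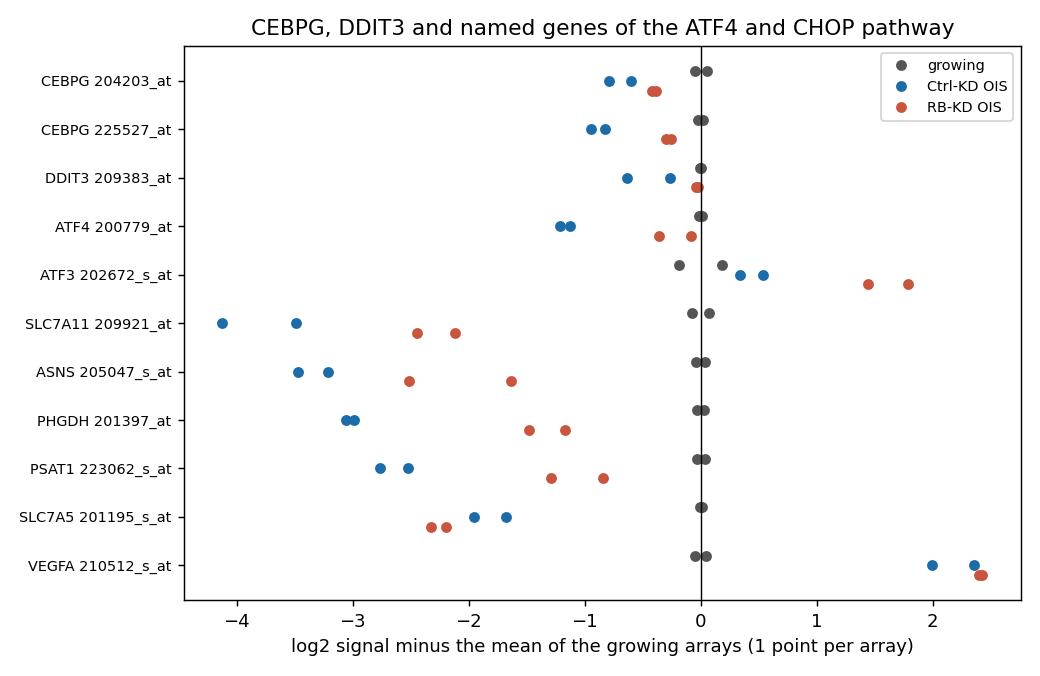
Log2 signal on each array minus the mean of the 2 growing arrays (horizontal axis) for CEBPG, DDIT3 and the named genes of the ATF4 and CHOP pathway, with 1 point per array and states by colour. For ATF4, SLC7A11, ASNS, PHGDH, PSAT1 and both CEBPG probe sets the RB-KD arrays lie between the growing and the Ctrl-KD arrays, while SLC7A5 and VEGFA lie furthest from growing in RB-KD cells.

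Of 15 tested chaperones and other genes of the unfolded protein response, the pathway upstream of CHOP, 5 rose and 3 fell in Ctrl-KD, and 9 rose and 2 fell in RB-KD against growing cells (medians 0.13 and 0.43; 19.9% and 20.7%, and 18.0% and 18.5% of all genes). Over the alternative settings the 9 became 4 to 10 and the 3 became 2 to 4. Those that fell were SEL1L and HSP90B1 in both OIS states and CRELD2 in Ctrl-KD cells. HSP90B1 lost its call under 5 settings in each comparison (adjusted p up to 0.142 and 0.148), and SEL1L with the mean of its probe sets (0.0792 and 0.130). Between the OIS states RB-KD cells were higher for 5 (SDF2L1, CRELD2, DNAJB11, PDIA4 and PDIA6). They were lower for 0 (1 at an unadjusted limma p under 0.05), and the list median was 0.09. Of all genes 11.6% were higher and 10.3% lower (18.1% at the unadjusted p), with a median of -0.02. ERN1, the stress sensor IRE1, rose by 1.68 and 1.47 in the OIS states (adjusted p = 1.36e-05 and 4.48e-05), and DNAJB9, a chaperone, by 0.89 and 0.91 (0.000103 and 0.000129). SDF2L1 read 1995 and 1935, 2105 and 2194.5, and 3409 and 3399 in growing, Ctrl-KD and RB-KD cells, so that it was higher by 0.66 in RB-KD than in Ctrl-KD cells (adjusted p = 0.00128). CRELD2, another secretory pathway chaperone, was higher there by 0.63 (adjusted p = 0.00376). These 5 became 2 without RB-KD replicate 1 and 0 with a prior variance that does not follow the signal.

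Genes that act on C/EBP proteins were mixed. Of 15 tested, 6 rose and 2 (RPS6KA2 and CALR) fell in Ctrl-KD and 5 rose and 1 (RPS6KA2) fell in RB-KD against growing cells (medians 0.17 and 0.05), where 19.9% and 20.7%, and 18.0% and 18.5% of all genes rose and fell. Over the alternative settings the 6 became 1 to 6 and the 5 became 2 to 6, and CALR lost its call under 7 (adjusted p up to 0.244). Between the OIS states 1 (RPS6KA3) was higher and 2 (SOCS3 and IL6R) were lower in RB-KD cells (median 0.06). Of all genes 11.6% were higher and 10.3% lower there (median -0.02). The list counts became 0 to 1 and 0 to 2 over the alternative settings. TRIB1, an adaptor that directs C/EBP proteins to degradation, read 2959 and 2259 in growing, 10349 and 10784 in Ctrl-KD and 9286 and 8683 in RB-KD cells, and rose by 2.03 and 1.80 (limma adjusted p = 2.13e-06 and 6.46e-06). With the mean of all its probe sets the rises were 1.33 and 0.30 and did not pass (adjusted p = 0.121 and 0.738). SOCS3, the inhibitor of IL-6 signalling, read 946 and 743, 5641 and 4155, and 2419.5 and 2624 in the same order, and differed by -0.94 between the OIS states (adjusted p = 0.00402). That difference missed the threshold with the mean of all probe sets (-0.42, 0.671) and with a prior variance that does not follow the signal (0.0882). RPS6KA2 and RPS6KA3 encode RSK kinases that phosphorylate C/EBPβ and moved in opposite directions, RPS6KA2 by -3.13 and -3.08 and RPS6KA3 by 0.95 and 1.32 in Ctrl-KD and RB-KD against growing cells (adjusted p = 1.59e-06, 2.48e-06, 5.36e-05 and 9.87e-06).

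Of 25 secretory and acute-phase genes known to respond to C/EBP, 21 had a probe set and 18 were tested. Most of those tested rose in both OIS states, with medians of 6.19 and 6.54. In Ctrl-KD cells 15 rose and 2 (CCL2 and PTX3) fell. In RB-KD cells 16 rose and 0 fell, also at an unadjusted limma p under 0.05, by which 23.8% of all genes fell. Genes dim in growing cells, such as CCL20 and CSF3, passed the filter only through OIS arrays, and genes dim in every state were not tested. The share that rose therefore depends in part on the filter. Over all genes 19.9% rose and 20.7% fell in Ctrl-KD and 18.0% and 18.5% in RB-KD cells. The rises numbered 15 to 16 under every alternative setting and the 2 falls 0 to 3, with CCL2 losing its call under 3 settings (adjusted p up to 0.0909) and PTX3 under 1 (0.0682). With the genes that lay under the array median in a whole state held at that median, the medians were 5.35 and 5.44. IL6, a cytokine long tied to C/EBPβ (first named NF-IL6), read 1605 and 1797 in growing, 28101 and 28727 in Ctrl-KD and 49377 and 44105 in RB-KD cells, and was 0.72 higher in RB-KD than in Ctrl-KD cells (adjusted p = 0.000871; 0.0594 with a prior variance that does not follow the signal). IL1B and CXCL8 read 45452 to 59101 and 47015 to 57820 on the OIS arrays, close to the highest signal of any probe set (64701). Their differences between the OIS states were 0.15 and 0.17 (adjusted p = 0.435 and 0.261), but the second CXCL8 probe set (211506_s_at) was called higher in RB-KD cells, by 0.29 (0.0477). CCL20 was at least 234-fold and at least 99.1-fold higher than in growing cells, where both arrays were under the median. Between the OIS states RB-KD cells were higher for 3 (CCL2, PTX3 and IL6) and lower for 0 (2 at an unadjusted p under 0.05). The list median was 0.26, against -0.02 over all genes, of which 11.6% were higher and 10.3% lower (18.1% at the unadjusted p). Over the alternative settings the 3 became 0 to 5 and the 0 became 0 to 2. With a replicate block CCL20 (-1.24, adjusted p = 0.0343) and CXCL2 (-0.58, 0.0204) were called lower, as they were under 5 and 6 settings in all.

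Genes of fat cell formation, among them targets of C/EBPα, C/EBPβ and C/EBPδ and the factors KLF4, KLF5 and KLF15, were mostly dim or lower. Of 15 listed 9 were tested (19.9% and 20.7%, and 18.0% and 18.5% of all genes rose and fell in Ctrl-KD and RB-KD cells), of which 2 (CD36 and PLIN2) rose and 4 fell in Ctrl-KD and 1 (LPL) rose and 4 fell in RB-KD against growing cells (medians -1.34 and -0.68, or -0.91 and -0.65 with dim states held at the array median). PPARG, the nuclear receptor at the head of fat cell formation, read 781 and 759 in growing, 155.5 and 147 in Ctrl-KD and 80.4 and 120.3 in RB-KD cells, and fell by 2.35 and 2.97 (limma adjusted p = 4.41e-05 and 1.49e-05). KLF4, which acts early in fat cell formation and ahead of CEBPB, read 459.5 and 371.5, 70.1 and 62.1, and 262 and 192 in the same order, and was 1.77 higher in RB-KD than in Ctrl-KD cells (adjusted p = 0.00135). The rises were not stable, with 0 to 2 in each comparison over the alternative settings. LPL passed the filter only through its RB-KD arrays and CD36 only through its OIS arrays. Their rises therefore depend in part on the filter. The genes that fell were PPARG, KLF4, KLF5 and SCD in both, but in RB-KD cells KLF4 lost its call under 5 and KLF5 under 9 of the alternative settings (adjusted p up to 0.164 and 0.406). SCD, the stearoyl-CoA desaturase, fell by 1.34 and 1.24 (adjusted p = 4.05e-06 and 9.83e-06). Set against Ctrl-KD cells, RB-KD cells were higher for 2 (KLF4 and KLF5) and lower for 0 (1 at an unadjusted p under 0.05). The list median was -0.09 (0.01 with dim states held at the array median), against -0.02 over all genes. Of all genes 11.6% were higher and 10.3% lower, or 18.1% lower at the unadjusted p. The call on KLF5 was lost under 9 of the alternative settings (adjusted p up to 0.154).

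**Figure D5:**
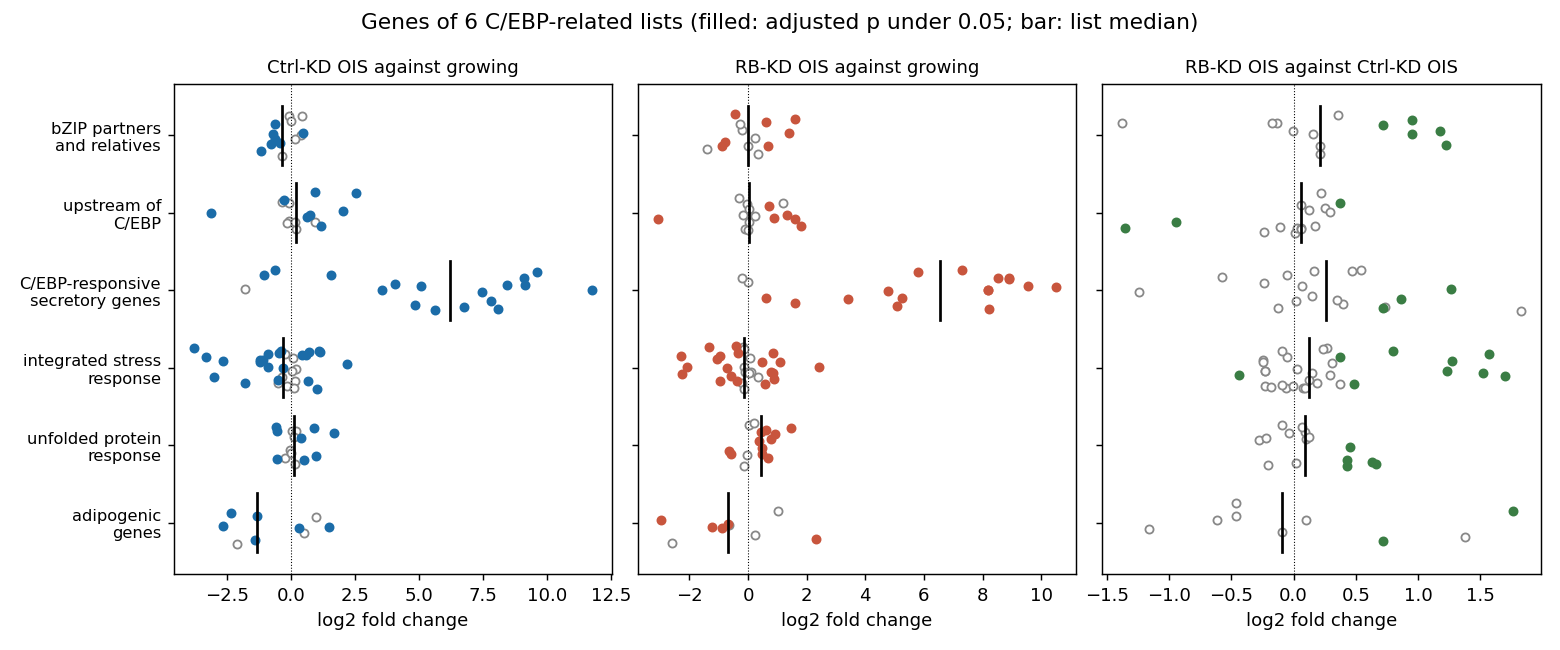
Log2 fold change (horizontal axis) of each tested gene of the 6 lists related to C/EBP, with each comparison in a panel, filled points for an adjusted p under 0.05 and a bar at the list median. The secretory list lies far to the right in both comparisons with growing cells (medians 6.19 and 6.54), and the list medians between the OIS states lie between -0.09 and 0.26.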

How the data were processed

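RNA of 6 samples was hybridized to Affymetrix U133 Plus 2.0 arrays from 2 independent experiments, and samples were grouped by their labels. The deposited intensities are MAS5 signals that the authors computed in Affymetrix Expression Console (versions not given in the sources used here). They are linear, range from 0.1 to 64701, come without detection calls and share a common scale (trimmed mean per array 496.2 to 496.5). Gene names came from the platform annotation, and 41091 of 54613 probe sets name 1 gene. Same-state arrays correlated at 0.9205 to 0.9255 and others at 0.8934 to 0.9186 (Pearson, log2 signal). The number of arrays limits the precision, and p values measure the spread between these samples only.

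The log2 of the signal was used without offset or other normalization. The 30139 probe sets that exceeded their array's median on 2 or more of the 6 arrays were fitted with limma 3.58.1 in R 4.3.3, with 1 mean for each state, all arrays in the fit and an intensity trend in the prior variance. Changes were called at a Benjamini-Hochberg adjusted p under 0.05 over all probe sets tested. A gene in a list was its brightest probe set naming it alone, and its adjusted p and its call come from this fit over all probe sets. Where a state lay under the array median on all its arrays, a fold is given against that median as a lower bound. The fit was tested on simulated data. All probe sets of the members are given, with up to 6 called genes of each list that changed most, some preset genes, and the 5 genes most like CEBPB and CEBPD. Other genes behind counts of 5 or fewer were named after their values were seen. The members and lists were chosen with earlier results of these data known. The alternative settings covered median centring, quantile normalization, an offset of 12.5, a filter at percentile 70 or none, 2 ways of joining probe sets, a prior variance without trend, a fit of just the 2 states compared, a replicate block, and each array left out in turn. A comparison of protein sequences was not made.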

Additional observations from a re-analysis of the deposited data

How the results depend on the processing

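Of 321 values of member probe sets under 16 alternative settings, 291 kept their direction and their side of the threshold, 20 lost the call and 3 gained one. The other 7 changed sign but were called neither as reported nor under that setting. For 66 other genes, 61 of 3138 values changed sign without being called either way, and AGO3 in Ctrl-KD against growing cells, called as reported, was at -0.26 with the mean of all its probe sets (adjusted p = 0.463). The 4 member probe sets called in RB-KD against growing cells became 2 with probe sets averaged per gene and 2 with no trend in the prior variance, and 2 to 4 when single arrays were left out. Those called in RB-KD against Ctrl-KD cells, 1 as reported, numbered 2 with the filter at percentile 70, 0 with the brightest probe set of each gene, which drops CEBPG 225527_at, 0 with no trend, and 1 to 2 when single arrays were left out. Of the genes in the 6 lists, 27 were called between the OIS states, against 17 with the mean of all probe sets and 6 with no trend, and 16 to 28 when single arrays were left out (16 without RB-KD replicate 1). Except where stated, the cause was not tested. Replicate numbers may mark the 2 independent experiments, but samples of the same number did not deviate together. Their deviations from the state means correlated at 0.01, -0.01 and 0.04. With a replicate block CEBPB was again 1.11 higher in Ctrl-KD cells (limma adjusted p = 7.09e-06), with 6 member probe sets and 69 list genes called. With 2 arrays per state the precision is limited most for dim probe sets such as CEBPD 213006_at, and CEBPA lay under the array median on every array.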
